A study of Mus musculus with 12 samples.

Results

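The annotated noncoding RNA genes on the array were followed in bone marrow-derived macrophages with and without the nuclear receptor ERRα, under lipopolysaccharide (LPS) and under its solvent. A noncoding transcript was recognised by a RefSeq accession that begins with NR_. The members were chosen by detection: an NR_ probe counted when its signal was well above background on all 12 arrays. No difference between groups entered that choice. This left 351 of 1400 NR_ probes, among 55681 probes on the array. They stood for 304 genes or unnamed accessions: 307 accessions in all, of which those with a match named 278 genes in the RefSeq gene table, while 32 probes with 26 accessions were not named there. Of the members, 204 probes (185 genes) belonged to long noncoding RNA (lncRNA) genes and 97 probes (75 genes) to transcribed pseudogenes. A further 9 probes belonged to structural RNAs (2 of these probes to genes typed as ribosomal RNA), 8 to noncoding variants of protein-coding genes, and 1 to Slfn10-ps, a Schlafen pseudogene typed as miscellaneous RNA. The label of noncoding genes thus held for the named genes except the 8 coding ones.

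An lncRNA is a transcript longer than a small RNA that encodes no known protein. Some stay in the nucleus as scaffolds of nuclear bodies, some are spliced hosts from which microRNAs or small nucleolar RNAs (snoRNAs) are cut, and many start beside a coding gene and run the other way. Transcribed pseudogenes are copies of coding genes that are still read into RNA, so their probes may share sequence with the parent gene, a point that was not tested here. LPS, a component of bacterial outer membranes, acts through the receptor TLR4 and changes coding and noncoding transcripts alike. ERRα, encoded by Esrra, is an orphan nuclear receptor known for driving genes of mitochondrial metabolism.

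The 12 arrays fell into 4 groups of 3: ERRα-/- with LPS, ERRα-/- with PBS, ERRα+/+ with LPS and ERRα+/+ with PBS. Macrophages were grown from marrow of male C57BL6 mice, 6 to 8 weeks old, for 5 to 7 days with M-CSF, and LPS was given at 100 ng/mL. The duration of LPS and the deleted part of Esrra are not given in the sources used here, and the labels do not say whether the arrays came from separate animals, so p-values measure only the spread between these samples. Replicate 1 of every group lay on slide 1 and replicates 2 and 3 on slide 2. Levels are log2 ratios of a probe's processed signal to the 75th percentile of its array, listed for replicates 1, 2 and 3 in that order. Effects are on the log2 scale, LPS minus PBS unless stated, ± limma's standard error (SE), with n = 3 arrays per group. A probe was called, and is said to have risen or fallen, at a limma adjusted p under 0.05 over all 28040 probes tested.

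Between 46.3% and 57.4% of an array's probes passed the background test. Principal component 1, with 72.6% of the variance, separated LPS from PBS arrays, and component 2, with 11.2%, separated the slides. The Esrra probe gave a linear level, in units of the 75th percentile, of 12.2 to 18.4 on ERRα-/- LPS arrays, 0.961 to 4.85 on ERRα-/- PBS arrays, 50.5 to 70.3 on ERRα+/+ LPS arrays and 18.2 to 22.4 on ERRα+/+ PBS arrays. It was lower in ERRα-/- cells under each treatment, though the highest ERRα-/- LPS array reached the range of ERRα+/+ PBS arrays. All 7 macrophage markers measured were above background on all 12 arrays, with summed linear levels of 1392 to 1703, 973 to 1367, 1320 to 1559 and 710 to 1249 in the same order of groups. Neutrophil markers (5 of 5 above background throughout) summed to 30.8 to 58.8, 32.4 to 35.0, 35.8 to 66.1 and 58.5 to 72.6. Dendritic cell markers (1 of 4 above background throughout) summed to 4.37 to 14.9, 2.61 to 20.3, 8.99 to 30.7 and 7.13 to 62.4. Erythroid markers (2 of 3, the third on no array) summed to 0.57 to 1.03, 1.80 to 2.21, 1.07 to 1.42 and 2.63 to 3.53, lower with LPS in both genotypes. B cell markers (2 of 5) summed to 1.87 to 12.4, 7.55 to 11.4, 2.82 to 3.19 and 4.69 to 13.1. Stromal and endothelial markers (5 of 6) summed to 1.50 to 2.74, 1.48 to 1.75, 2.19 to 3.58 and 2.23 to 5.01. Mast cell and basophil markers (2 of 5, the others on no array) stayed at 1.14 or less. T and NK cell markers (2 of 5 above background throughout, 1 on no array) summed to 3.41 to 15.7, 1.18 to 2.32, 2.47 to 8.11 and 1.50 to 2.09. These sums followed Lck, at log2 levels of 0.66, 3.85 and 3.61 on ERRα-/- LPS and -0.46, -2.64 and -2.34 on ERRα-/- PBS arrays. In ERRα+/+ cells Lck read -0.038, 2.54 and 2.67 with LPS and -0.78, -1.64 and -2.13 with PBS. Cd3e stayed between -0.0091 and 0.74 on all arrays. Megakaryocyte markers (3 of 3) summed to 88.3 to 94.6, 56.8 to 60.4, 126 to 180 and 66.5 to 105. The part of these markers in the results below was not tested.

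The share of noncoding transcripts called between LPS and PBS lay close to that of all probes. Most calls were shared by ERRα-/- and ERRα+/+ cells, as they were over all probes. Since these are bulk samples, fewer cells of a type and less RNA per cell cannot be told apart. In ERRα-/- cells 74 members rose, 85 fell and 192 were not called, so that 45.3% were called against a background of 43.7% of all probes tested (22.9% rose, 20.7% fell) and 43.3% of all probes above background on every array. In ERRα+/+ cells 73 rose, 79 fell and 199 were not called, 43.3% of members against 39.7% of all probes tested (20.1% rose, 19.6% fell) and 39.1% of those above background on every array. The median member difference was 0.12 in ERRα-/- and 0.013 in ERRα+/+ cells, beside 0.11 and 0.060 over all probes tested. With quantile normalization, which shifted the median of all probes to -0.075 in ERRα-/- and -0.069 in ERRα+/+ cells, the balance leaned further towards falls: 59 members rose and 96 fell in ERRα-/- cells, and 53 rose and 94 fell in ERRα+/+ cells. The 3 LPS and 3 PBS levels did not overlap in ERRα-/- cells for 100 members with LPS above and 99 with LPS below (56.7% of members, 54.5% of all probes tested), and in ERRα+/+ cells for 83 above and 92 below (49.9% of members, 49.7% of all probes tested). No call ran in opposite directions: 57 members rose and 71 fell in both genotypes, which is 80.5% of the ERRα-/- calls and 84.2% of the ERRα+/+ calls. Over all probes tested these shares were 78.6% and 86.4%, also with 0 opposite calls. Across the 351 probes, which are not independent replicates, the responses of the genotypes had a Pearson r of 0.953 and a Spearman rho of 0.922. Over all probes tested r was 0.948 and rho 0.918. Of the 159 ERRα-/- calls, all had the same direction on slide 1 and slide 2; of the 152 ERRα+/+ calls, 150 did.

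**Figure D1:**
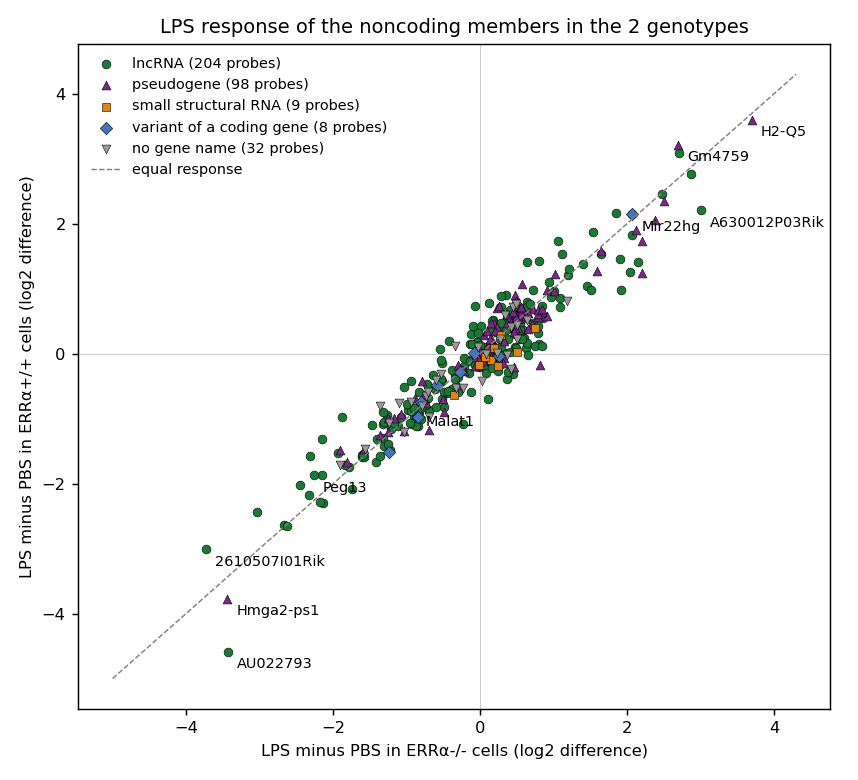
Log2 difference LPS minus PBS of each member probe in ERRα-/- cells against the same difference in ERRα+/+ cells, each the difference of 2 means of 3 arrays, coloured by RefSeq gene type. The 351 points lie near the diagonal (Pearson r = 0.953), with H2-Q5 at the upper end and AU022793, Hmga2-ps1 and 2610507I01Rik at the lower end. The kind labelled small structural RNA includes 2 probes of genes typed as ribosomal RNA.

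The members were next counted by kind of gene. Among lncRNA probes 43 of 204 rose and 61 fell in ERRα-/- cells, and 36 rose and 56 fell in ERRα+/+ cells, with medians of -0.021 and -0.13. Quantile normalization gave the same order (37 rose and 63 fell in ERRα-/- cells, 35 and 63 in ERRα+/+ cells). With normexp background correction the lncRNA counts lay closer, at 42 rises and 51 falls in ERRα-/- cells (median 0.10). In ERRα+/+ cells they were then 38 and 49 (median -0.090). Among pseudogene probes rises were more frequent, with 26 of 97 up and 13 down in ERRα-/- cells and 31 up and 13 down in ERRα+/+ cells (medians 0.31 and 0.35), but quantile normalization turned this order, to 18 up and 21 down in ERRα-/- cells and 15 up and 18 down in ERRα+/+ cells. With the replicate block 44 pseudogene probes were up and 19 down in ERRα-/- cells, and 44 up and 17 down in ERRα+/+ cells. Of the 32 members without a gene name, 2 rose and 10 fell in ERRα-/- cells and 4 rose and 9 fell in ERRα+/+ cells. Over all probes tested 22.9% rose and 20.7% fell in ERRα-/- cells, and 20.1% and 19.6% in ERRα+/+ cells. The difference between the kinds of gene was not tested.

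**Figure D2:**
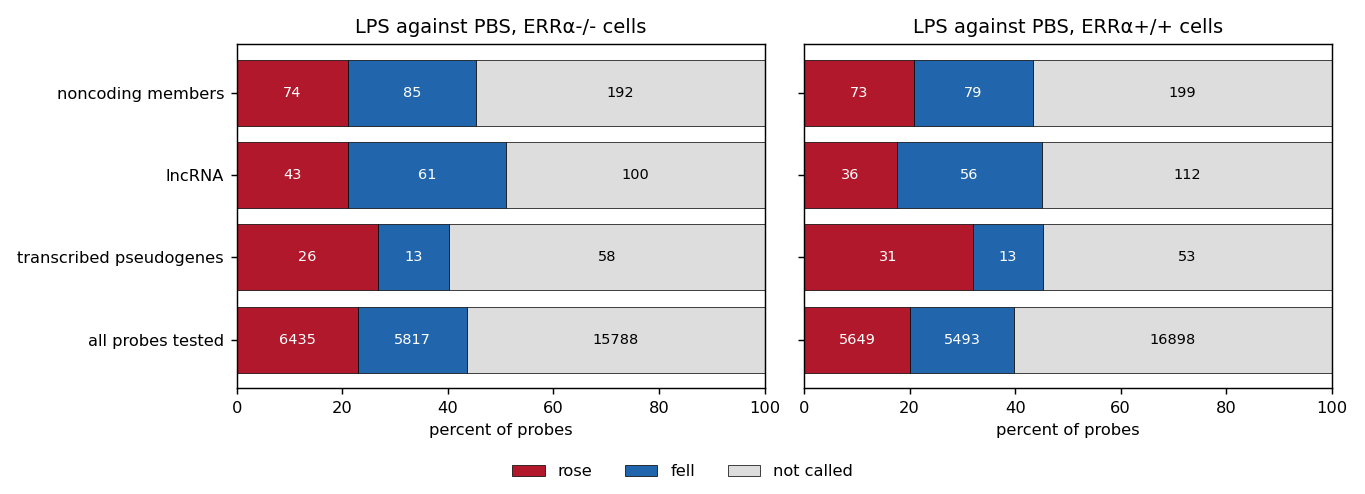
Shares of probes that rose, fell or were not called under LPS, in ERRα-/- cells (left panel) and ERRα+/+ cells (right panel), for all members, lncRNA members, pseudogene members and all probes tested. Members as a whole resemble all probes (45.3% against 43.7% called in ERRα-/- cells), lncRNA probes lean towards falls and pseudogene probes towards rises, the last only with the 75th percentile scaling.

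The largest rise belonged to H2-Q5, a transcribed pseudogene of the major histocompatibility complex class I region on chromosome 17. Its level was 6.10, 5.45 and 5.43 on ERRα-/- LPS arrays and 3.23, 1.35 and 1.32 on ERRα-/- PBS arrays. The ERRα+/+ LPS arrays gave 4.70, 5.20 and 5.23 and the ERRα+/+ PBS arrays 1.72, 1.34 and 1.26. Every LPS array lay above every PBS array in both genotypes, and the first replicate of ERRα-/- PBS stood above the other PBS arrays. The rise was 3.70 ± 0.45 (adjusted p = 0.000148) in ERRα-/- cells and 3.60 ± 0.45 (adjusted p = 0.000174) in ERRα+/+ cells, or 13.0-fold and 12.1-fold. On slide 1 it was 2.88 in ERRα-/- and 2.98 in ERRα+/+ cells, and on slide 2 4.10 and 3.91 in the same order. The nearest coding gene, the class I gene H2-Q4, was not called (0.23 and -0.12). The 2 probes of H2-K2, another class I pseudogene, differed by 0.79 and 0.79 in ERRα-/- cells and by 0.61 and 0.67 in ERRα+/+ cells without being called; with the replicate number as a block their adjusted p-values were 0.00362 and 0.00378 in ERRα-/- cells and 0.0137 and 0.00906 in ERRα+/+ cells.

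Other pseudogenes followed. Gm4759 on chromosome 7 read 0.61, 1.43 and 1.35 on ERRα-/- LPS arrays and -1.30, -1.61 and -1.76 on ERRα-/- PBS arrays. For ERRα+/+ cells the levels were 0.016, 1.20 and 0.98 with LPS and -2.92, -2.10 and -2.41 with PBS. It separated LPS from PBS in both genotypes and rose by 2.69 ± 0.34 (adjusted p = 0.000193) in ERRα-/- cells and 3.21 ± 0.34 (adjusted p = 6.7e-05) in ERRα+/+ cells. Slfn10-ps, a member of the Schlafen family that is known for interferon-regulated genes, read 3.77, 5.26 and 5.26 on ERRα-/- LPS arrays and 2.51, 2.23 and 2.07 on ERRα-/- PBS arrays. On ERRα+/+ LPS arrays the values were 3.51, 4.91 and 4.76, against 2.21, 1.95 and 1.97 on ERRα+/+ PBS arrays. Replicate 1 was lowest among the LPS arrays of each genotype. It rose by 2.50 ± 0.44 (adjusted p = 0.00119) in ERRα-/- cells and 2.35 ± 0.44 (adjusted p = 0.0019) in ERRα+/+ cells. Its coding neighbour Slfn8 rose as well, by 3.02 ± 0.51 in ERRα-/- and 3.31 ± 0.51 in ERRα+/+ cells. Smaller rises called in both genotypes were those of 4930515G16Rik (2.38 in ERRα-/- and 2.06 in ERRα+/+ cells) and Gm8096 (2.12 in ERRα-/- and 1.90 in ERRα+/+ cells). Zfp133-ps, a zinc finger pseudogene, rose in ERRα-/- cells by 2.21 ± 0.62 (adjusted p = 0.0149), a call lost on leaving out ERRα-/- LPS replicate 2 (then 1.78 at adjusted p = 0.0639). In ERRα+/+ cells it differed by 1.24 ± 0.62 (adjusted p = 0.136), with adjusted p = 0.04 under the replicate block.

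Among lncRNAs the rises were led by A630012P03Rik, 4933412E12Rik, Gm12216 and Gdap10. For 4933412E12Rik on chromosome 10 the level was 2.06, 2.38 and 2.46 on ERRα-/- LPS arrays and -0.24, -0.79 and -0.67 on ERRα-/- PBS arrays. With ERRα present, LPS arrays read 1.40, 2.13 and 2.21 and PBS arrays -0.52, -1.01 and -1.03. It rose by 2.87 ± 0.26 (adjusted p = 2.45e-05) in ERRα-/- cells and 2.77 ± 0.26 (adjusted p = 2.85e-05) in ERRα+/+ cells. This gene starts 109 bases from Rab3ip, which encodes an exchange factor for Rab8 and runs in the opposite direction; Rab3ip rose by 2.36 ± 0.23 in ERRα-/- and 2.00 ± 0.23 in ERRα+/+ cells. Gm12216 on chromosome 11 read 0.98, 0.81 and 0.84 on ERRα-/- LPS arrays and -1.47, -1.93 and -2.09 on ERRα-/- PBS arrays. Levels in ERRα+/+ cells were 1.22, 1.08 and 0.87 under LPS and -1.81, -2.16 and -2.10 under PBS. Its 6 LPS arrays all lay above 0 and its 6 PBS arrays all below it, and the rise was 2.71 ± 0.19 (adjusted p = 5.79e-06) in ERRα-/- cells and 3.09 ± 0.19 (adjusted p = 2.38e-06) in ERRα+/+ cells. The neighbouring carnitine transporter gene Slc22a5 was not called (-0.46 in ERRα-/- and -0.21 in ERRα+/+ cells).

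The promoters of these 2 lncRNAs, and of Gm16062, a falling lncRNA treated further on, are shown because all 3 were called in both genotypes and 2 of them face a coding gene that moved the same way. Each runs from 250 bases before to 50 bases after the start, is taken from RefSeq (GRCm38.p6) and reads along the gene's own strand, with capitals for a match to a searched motif.
4933412E12Rik, chr10:116950312-116950611, plus strand: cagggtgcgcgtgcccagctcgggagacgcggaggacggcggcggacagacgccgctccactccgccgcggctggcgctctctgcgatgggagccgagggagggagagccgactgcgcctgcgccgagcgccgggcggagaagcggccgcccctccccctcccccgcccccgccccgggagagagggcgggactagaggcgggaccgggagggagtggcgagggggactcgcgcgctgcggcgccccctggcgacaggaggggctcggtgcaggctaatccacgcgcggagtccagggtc
Gm12216, chr11:53859207-53859506, minus strand: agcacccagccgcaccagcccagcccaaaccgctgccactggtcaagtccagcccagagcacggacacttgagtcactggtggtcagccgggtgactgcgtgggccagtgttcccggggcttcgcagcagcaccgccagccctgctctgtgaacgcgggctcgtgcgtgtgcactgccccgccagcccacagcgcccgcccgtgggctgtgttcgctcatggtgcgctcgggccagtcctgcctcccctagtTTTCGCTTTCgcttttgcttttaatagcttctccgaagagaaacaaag
Gm16062, chr11:59809830-59810129, plus strand: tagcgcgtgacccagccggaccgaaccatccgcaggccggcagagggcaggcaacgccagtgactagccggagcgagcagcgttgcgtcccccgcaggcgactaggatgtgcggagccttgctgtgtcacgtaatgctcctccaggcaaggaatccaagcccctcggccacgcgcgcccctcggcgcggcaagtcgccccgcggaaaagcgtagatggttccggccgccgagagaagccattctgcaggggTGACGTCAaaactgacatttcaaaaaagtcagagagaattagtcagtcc
The window of 4933412E12Rik held none of the motifs, that of Gm12216 an interferon response match 2 bases after the start, and that of Gm16062 a CREB site 1 base after it.

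Promoter windows were found for 160 member genes (170 of 319 named probes), and each motif was searched on both strands in these and in all 32851 windows. A member gene counted when any of its windows held the motif, while the share of all windows counts single windows. The shares are thus in unlike units where a gene has several windows. The core element of estrogen-related receptors, AAGGTCA, occurred in 12 of 160 member genes (7.5%) and in 4.72% of all windows. It was present in 3 of 25 genes that rose in both genotypes, 1 of 42 that fell in both and 8 of 69 called in neither. A pair of NF-kB consensus sites were each in 0 member windows, against 0.155% and 0.0883% of all windows. The interferon response motif was in 6 member genes (3.75%, all windows 3.44%), and TGACGTCA, bound by CREB, in 5 (3.13%, all windows 1.79%). The E box CACGTG was in 22 (13.8%, all windows 7.15%), with 0 of 25 rising, 2 of 42 falling and 15 of 69 uncalled genes (21.7%) among them. TATAAA was in 22 (13.8%, all windows 13.6%). No searched motif contains another, and a match describes letters in the window only.

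Gdap10, which overlaps Nampt, the gene of the rate-limiting enzyme of NAD salvage, read 5.55, 5.77 and 5.77 on ERRα-/- LPS arrays and 3.59, 3.08 and 2.98 on ERRα-/- PBS arrays. In ERRα+/+ cells it was 5.72, 5.61 and 5.42 with LPS and 3.07, 3.39 and 2.92 with PBS. It rose by 2.48 ± 0.20 (adjusted p = 1.24e-05) in ERRα-/- cells and 2.45 ± 0.20 (adjusted p = 1.19e-05) in ERRα+/+ cells, next to a rise of Nampt by 2.82 ± 0.25 in ERRα-/- and 2.83 ± 0.25 in ERRα+/+ cells. A630012P03Rik, on the X chromosome across the glypican gene Gpc3, read 0.47, 0.22 and 0.41 on ERRα-/- LPS arrays and -2.21, -2.96 and -2.75 on ERRα-/- PBS arrays. The ERRα+/+ LPS arrays gave -1.21, -0.21 and -0.20 and the ERRα+/+ PBS arrays -2.36, -2.69 and -3.18. Its LPS levels were lower in each ERRα+/+ replicate than in the ERRα-/- replicate of the same number, and it rose by 3.01 ± 0.31 (adjusted p = 6.05e-05) in ERRα-/- cells and 2.20 ± 0.31 (adjusted p = 0.000388) in ERRα+/+ cells; the difference between the genotypes' responses was not called (adjusted p = 0.99995). 6330407A03Rik, which overlaps the Src family kinase gene Lyn, rose by 1.05 in ERRα-/- and 1.74 in ERRα+/+ cells, and Lyn rose by 1.88 and 2.09 in the same order. Dubr differed by 1.45 in ERRα-/- and 1.04 in ERRα+/+ cells, both called. 1700110I01Rik had 2 probes, of which 1.85 and 2.15 were called in ERRα-/- cells, whereas in ERRα+/+ cells the values were 2.17 ± 0.22 (adjusted p = 5.52e-05) and 1.42 ± 0.53 (adjusted p = 0.0532). With the replicate number as a block the second of these had an adjusted p of 0.0195.

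**Figure D3:**
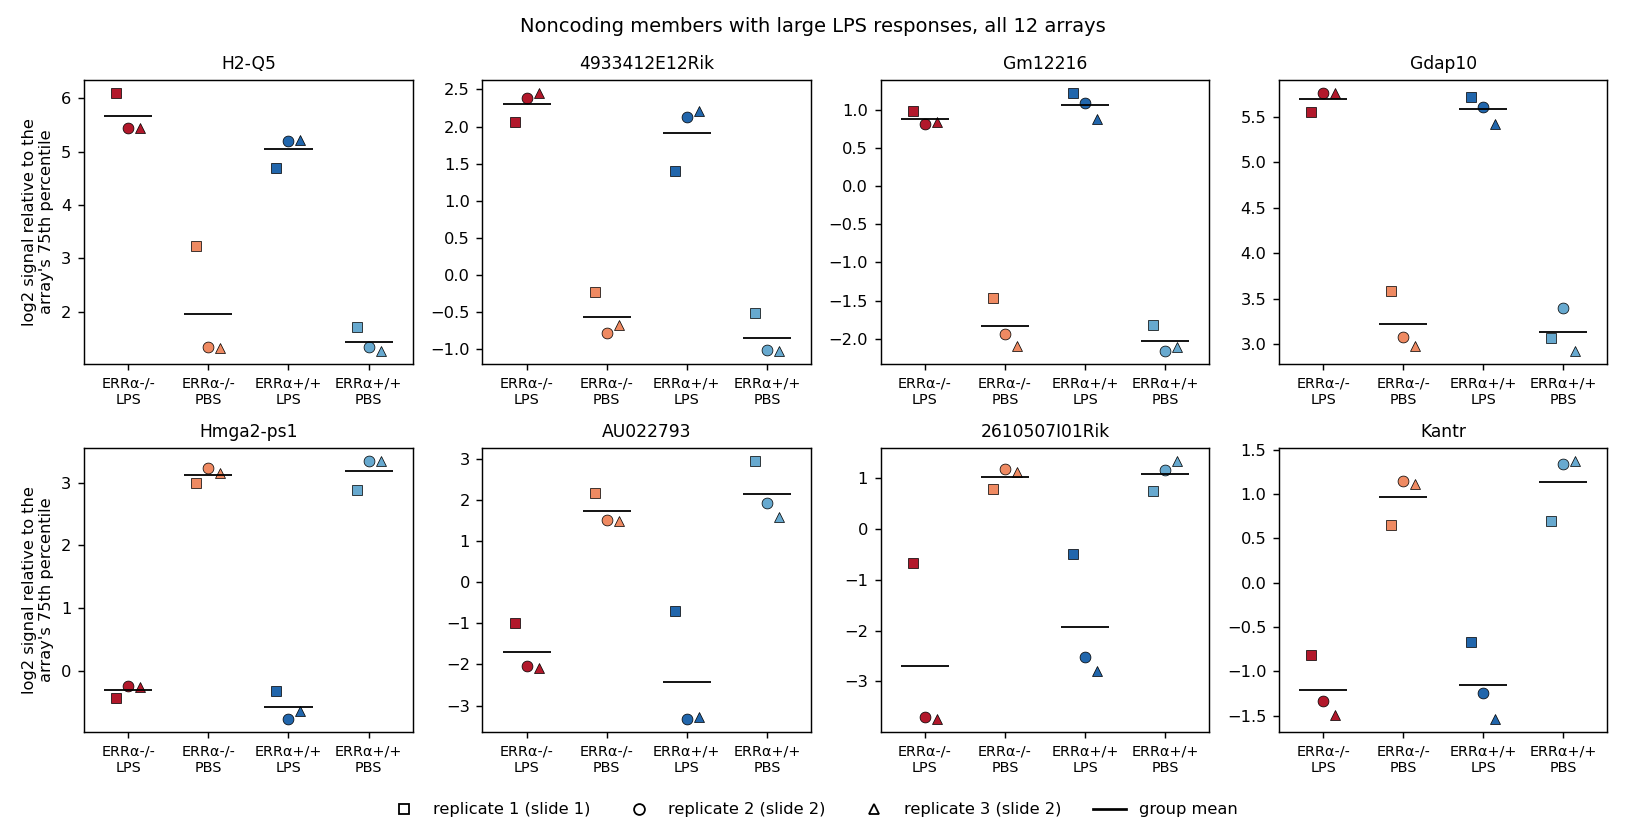
Level of 8 members on each array (log2 signal over the 75th percentile), in the order ERRα-/- LPS, ERRα-/- PBS, ERRα+/+ LPS and ERRα+/+ PBS, with a marker per replicate and a bar at the group mean. H2-Q5, 4933412E12Rik, Gm12216 and Gdap10 lie higher on LPS arrays, and Hmga2-ps1, AU022793, 2610507I01Rik and Kantr lie lower, in both genotypes.

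The falls were as large. Hmga2-ps1, a pseudogene of the chromatin protein gene Hmga2 on chromosome 1, read -0.44, -0.24 and -0.26 on ERRα-/- LPS arrays and 2.99, 3.23 and 3.16 on ERRα-/- PBS arrays. For ERRα+/+ cells the levels were -0.32, -0.77 and -0.65 with LPS and 2.88, 3.35 and 3.35 with PBS. The groups were far apart, and the fall had the smallest adjusted p of the named members: -3.44 ± 0.18 (adjusted p = 1.31e-06) in ERRα-/- cells and -3.77 ± 0.18 (adjusted p = 6.75e-07) in ERRα+/+ cells. It overlaps Sdccag8, a gene of centrosome and cilium function, which fell by 2.15 ± 0.41 in ERRα-/- and by 1.89 ± 0.41 in ERRα+/+ cells. AU022793, an lncRNA on chromosome 15, read -0.99, -2.04 and -2.09 on ERRα-/- LPS arrays and 2.17, 1.51 and 1.49 on ERRα-/- PBS arrays. On ERRα+/+ LPS arrays the values were -0.69, -3.33 and -3.27, against 2.96, 1.92 and 1.60 on ERRα+/+ PBS arrays. Replicate 1, on slide 1, was the highest of each LPS group. The difference was -3.43 ± 0.66 (adjusted p = 0.00199) in ERRα-/- cells and -4.59 ± 0.66 (adjusted p = 0.000407) in ERRα+/+ cells. Within slide 2 the response was weaker in ERRα-/- cells by 1.50 (adjusted p = 0.0414), whereas over all arrays that difference of 1.16 was not called (adjusted p = 0.99995). The nearest coding gene, Lrp12, fell by 1.18 in ERRα-/- and by 1.62 in ERRα+/+ cells.

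2610507I01Rik on chromosome 11 read -0.66, -3.70 and -3.74 on ERRα-/- LPS arrays and 0.78, 1.17 and 1.12 on ERRα-/- PBS arrays. With ERRα present, LPS arrays read -0.50, -2.51 and -2.80 and PBS arrays 0.74, 1.15 and 1.34. LPS arrays lay below PBS arrays throughout, but the size depended on the slide: -1.44 in ERRα-/- and -1.24 in ERRα+/+ cells on slide 1, and -4.87 and -3.90 on slide 2. Over all arrays the difference was -3.73 ± 0.79 (adjusted p = 0.00349) in ERRα-/- cells and -3.01 ± 0.79 (adjusted p = 0.0116) in ERRα+/+ cells. The ERRα+/+ call was lost on leaving out ERRα+/+ LPS replicate 3 (then -2.58 at adjusted p = 0.0505). It starts back to back with Mrpl55, a mitochondrial ribosomal protein gene, which was not called (0.12 in ERRα-/- and 0.29 in ERRα+/+ cells). Falls called in both genotypes were also those of 4933439C10Rik (-3.03 in ERRα-/- and -2.44 in ERRα+/+ cells), 4930425O10Rik (-2.67 in ERRα-/- and -2.64 in ERRα+/+ cells), Gm10336 (-2.63 in ERRα-/- and -2.65 in ERRα+/+ cells) and Gm13710 (-2.45 in ERRα-/- and -2.02 in ERRα+/+ cells). Gm10336 overlaps Mtr, the methionine synthase gene, which fell by 0.66 in ERRα-/- and by 1.09 in ERRα+/+ cells. 1600010M07Rik fell (-2.33 in ERRα-/- and -2.17 in ERRα+/+ cells) beside Tmem41b, which rose by 0.78 and 0.43 in the same order. 2310040G24Rik differed by -2.13 in ERRα-/- and -2.29 in ERRα+/+ cells, both called. Thap6, typed as a pseudogene in the mouse table, fell (-1.91 in ERRα-/- and -1.48 in ERRα+/+ cells), as did Rchy1, the ubiquitin ligase gene it overlaps (-1.22 and -1.15).

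The microRNA hosts Mir22hg and Mir17hg rose in both genotypes. Mir22hg read 2.36, 1.97 and 1.76 on ERRα-/- LPS arrays and 1.15, -0.62 and -0.66 on ERRα-/- PBS arrays. Levels in ERRα+/+ cells were 2.56, 1.91 and 1.86 under LPS and 1.23, -0.55 and -0.78 under PBS. Slide 1 arrays of the PBS groups stood well above the slide 2 arrays. The rise was 2.07 ± 0.58 (adjusted p = 0.0141) in ERRα-/- cells and 2.14 ± 0.58 (adjusted p = 0.0132) in ERRα+/+ cells, with 1.21 and 1.33 on slide 1 and 2.50 and 2.55 on slide 2 in the same order. The ERRα-/- call was lost on leaving out ERRα-/- PBS replicate 2 (then 1.78 at adjusted p = 0.0575) or ERRα-/- PBS replicate 3 (then 1.76 at adjusted p = 0.0577). The ERRα+/+ call was lost on leaving out ERRα+/+ PBS replicate 2 (then 1.88 at adjusted p = 0.054) or ERRα+/+ PBS replicate 3 (then 1.77 at adjusted p = 0.0561). Mir17hg, host of the miR-17 to miR-92 cluster known for promoting proliferation, read 1.06, 2.42 and 2.22 on ERRα-/- LPS arrays and -0.18, 0.13 and 0.026 on ERRα-/- PBS arrays. In ERRα+/+ cells it was 0.88, 2.33 and 2.18 with LPS and 0.32, 0.57 and 0.13 with PBS. Its LPS level was lowest on slide 1 in both genotypes. The rise was 1.91 ± 0.41 (adjusted p = 0.00395) in ERRα-/- cells and 1.46 ± 0.41 (adjusted p = 0.0168) in ERRα+/+ cells. The ERRα+/+ call was lost on leaving out ERRα+/+ LPS replicate 2 (then 1.19 at adjusted p = 0.0714), ERRα+/+ LPS replicate 3 (then 1.27 at adjusted p = 0.0675) or ERRα+/+ PBS replicate 3 (then 1.35 at adjusted p = 0.0576). The mature microRNAs that these transcripts carry or lie beside are shown, with the seed (bases 2 to 8) in capitals, because they are the known products; the arrays did not measure them here.
miR-22-5p: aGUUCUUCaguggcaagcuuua
miR-22-3p: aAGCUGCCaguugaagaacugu
miR-17-5p: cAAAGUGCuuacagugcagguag
miR-20a-5p: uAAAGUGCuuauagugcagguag
miR-18a-5p: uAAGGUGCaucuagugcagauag
miR-19a-3p: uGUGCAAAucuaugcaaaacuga
miR-19b-3p: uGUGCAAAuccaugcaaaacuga
miR-92a-3p: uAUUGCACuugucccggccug
The sequences are from RefSeq (GRCm38.p6). miR-17-5p and miR-20a-5p share the seed AAAGUGC and miR-19a-3p and miR-19b-3p share GUGCAAA, while the others shown have seeds of their own. The miR-22 hairpin lies inside the Mir22hg gene; of the cluster, the gene table's span of Mir17hg holds the miR-92a-1 hairpin, and the other hairpins lie within 1000 bases on the same strand.

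Of the genes listed as microRNA hosts or precursors, 6 were tested, 4 of them members. In this list 2 rose and 1 fell in ERRα-/- cells and 3 rose and 1 fell in ERRα+/+ cells, the same under quantile normalization. With normexp background correction 3 rose and 1 fell in each genotype. Over all probes tested 22.9% rose and 20.7% fell in ERRα-/- cells, and 20.1% and 19.6% in ERRα+/+ cells. Mir99ahg, host of a let-7 and miR-99 family cluster, rose in ERRα+/+ cells by 1.43 ± 0.34 (adjusted p = 0.00686) and differed by 0.80 ± 0.34 (adjusted p = 0.0776) in ERRα-/- cells. Dleu2, host of miR-15a and miR-16-1, differed by -0.28 and -0.57 in ERRα-/- and ERRα+/+ cells and was not called, with adjusted p = 0.0436 in ERRα+/+ cells under the replicate block. The listed gene that fell was Mirt1, above background on 11 arrays and so no member (-1.65 in ERRα-/- and -2.13 in ERRα+/+ cells). Mirt1 and Mirt2, the other tested non-member, were listed by their names and were not established as microRNA hosts. By the gene table instead, 6 member probes lay in genes that hold a microRNA gene on their strand. Of these 3 rose and 2 fell in ERRα-/- cells, and 2 rose and 2 fell in ERRα+/+ cells. The falls were those of Snhg10 and Ftx.

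Genes that host snoRNAs in their introns, the guides of ribosomal RNA modification, moved in different directions. In this and the other gene lists each gene was read by its brightest tested probe. Of 11 tested genes listed as such hosts, 2 rose and 2 fell in ERRα-/- cells and 4 rose and 1 fell in ERRα+/+ cells (medians 0.013 and 0.43), whereas with quantile normalization 1 rose and 3 fell in ERRα-/- cells and 2 rose and 3 fell in ERRα+/+ cells. Snhg17 rose by 1.19 ± 0.31 (adjusted p = 0.0109) in ERRα-/- cells and 1.21 ± 0.31 (adjusted p = 0.011) in ERRα+/+ cells. Snhg16 had 2 probes, both called in both genotypes: 0.68 and 0.54 in ERRα-/- cells and 0.76 and 0.53 in ERRα+/+ cells. Snhg1 rose in ERRα+/+ cells by 0.71 ± 0.16 (adjusted p = 0.00496), against 0.29 ± 0.16 (adjusted p = 0.165) in ERRα-/- cells. Snhg10, listed by its name, holds no snoRNA gene in the RefSeq table, and fell, with differences of -1.17 ± 0.15 (adjusted p = 0.000236) in ERRα-/- cells and -1.06 ± 0.15 (adjusted p = 0.000443) in ERRα+/+ cells. Snhg12 fell in ERRα-/- cells by 0.54 (adjusted p = 0.0148), a call lost on leaving out ERRα-/- LPS replicate 2 (then -0.53 at adjusted p = 0.0501) or ERRα-/- LPS replicate 3 (then -0.41 at adjusted p = 0.0691), and differed by -0.39 in ERRα+/+ cells (adjusted p = 0.0613, or 0.0374 under the replicate block). Snhg6 rose in ERRα+/+ cells by 0.48 (adjusted p = 0.0407), a call that was lost on leaving out any of 9 single arrays and was 0.32 without ERRα+/+ PBS replicate 2. Snhg7 (-0.53 in ERRα-/- cells) and Snhg15 (0.43 in ERRα+/+ cells) were called under the replicate block and not without a block (adjusted p = 0.0111 and 0.0312). Snhg3, Snhg5 and Dancr were not called in either genotype, with differences between -0.26 and 0.43. Chosen by the gene table instead, 17 member probes lay in genes that hold a snoRNA gene, on either strand. Of these 6 rose and 2 fell in ERRα-/- cells and 7 rose and 1 fell in ERRα+/+ cells (medians 0.29 and 0.43). The largest fall was that of 2410006H16Rik, which holds 3 snoRNA genes. It differed by -1.93 in ERRα-/- (adjusted p = 0.000209) and -1.54 in ERRα+/+ cells (adjusted p = 0.000867). The largest rise was that of the pseudogene Gm4759 (2.69 in ERRα-/- and 3.21 in ERRα+/+ cells). Both counts of snoRNA hosts stand beside 22.9% rises and 20.7% falls of all probes in ERRα-/- cells, and 20.1% and 19.6% in ERRα+/+ cells.

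The proteins that work with these RNAs were read from lists of coding genes, to be set beside the 22.9% of all probes that rose and 20.7% that fell in ERRα-/- cells, and the 20.1% and 19.6% in ERRα+/+ cells. Nothing particular to a list was tested. Of 13 genes of snoRNA-protein particles and ribosomal RNA processing, 7 rose and 0 fell in ERRα-/- cells and 8 rose and 0 fell in ERRα+/+ cells, while quantile normalization gave 4 rises and 1 fall in ERRα-/- and 5 rises and 2 falls in ERRα+/+ cells. Nop58, a core box C/D protein, rose by 1.33 in ERRα-/- and 1.37 in ERRα+/+ cells, Nolc1, a nucleolar chaperone, by 1.12 in ERRα-/- and 1.04 in ERRα+/+ cells, and Gar1, a box H/ACA protein, by 0.89 in ERRα-/- and 1.27 in ERRα+/+ cells. Of 12 paraspeckle and nuclear speckle proteins 5 rose and 0 fell in ERRα-/- cells and 4 rose and 0 fell in ERRα+/+ cells, against 4 and 0 and then 2 and 1 with quantile normalization. The replicate block gave 9 rises in ERRα-/- and 8 in ERRα+/+ cells. Among them were Sfpq (1.30 in ERRα-/- and 1.16 in ERRα+/+ cells), an RNA-binding protein of paraspeckles, and the splicing factor gene Srsf2 (1.32 in ERRα-/- and 1.34 in ERRα+/+ cells). Of 12 genes of microRNA biogenesis 2 rose and 5 fell in ERRα-/- cells and 2 rose and 4 fell in ERRα+/+ cells, with 1 and 5 in each genotype under quantile normalization. The Argonaute gene Ago4 fell (-3.33 in ERRα-/- and -3.22 in ERRα+/+ cells). So did the Argonaute partner genes Tnrc6b (-2.88 in ERRα-/- and -3.08 in ERRα+/+ cells) and Tnrc6c (-1.36 in ERRα-/- and -1.11 in ERRα+/+ cells). Another Argonaute gene, Ago3, rose (0.76 in ERRα-/- cells, adjusted p = 0.0198, and 1.60 in ERRα+/+ cells, adjusted p = 0.00041), and Ago1 and Ago2 were not called. Tarbp2, a Dicer cofactor gene, rose too (0.62 in ERRα-/- and 0.62 in ERRα+/+ cells). Of 20 genes of nonsense-mediated decay and the nuclear exosome, which degrade many noncoding transcripts, 9 rose and 3 fell in ERRα-/- cells and 8 rose and 3 fell in ERRα+/+ cells; quantile normalization gave 6 and 3, and 4 and 3. Upf3b, a decay factor gene, fell (-1.29 in ERRα-/- and -1.33 in ERRα+/+ cells).

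Structural RNAs were rarely called. The 9 member probes of this kind, 2 of them of genes typed as ribosomal RNA, gave 1 rise in ERRα-/- cells and 0 calls in ERRα+/+ cells. Of all probes 43.7% and 39.7% were called. The rise was that of the U2 gene Rnu2-10, by 0.75 ± 0.25 (adjusted p = 0.0333), and it was lost on leaving out ERRα-/- LPS replicate 2 (then 0.78 at adjusted p = 0.0705), ERRα-/- LPS replicate 3 (then 0.54 at adjusted p = 0.132) or ERRα-/- PBS replicate 2 (then 0.58 at adjusted p = 0.129). Rmrp, the RNA of RNase MRP, differed by -0.011 in ERRα-/- and -0.18 in ERRα+/+ cells, and Terc, the telomerase RNA, by -0.36 in ERRα-/- and -0.64 in ERRα+/+ cells, neither called. The U12 gene Rnu12 differed by 0.18 in ERRα-/- and 0.083 in ERRα+/+ cells; with quantile normalization its ERRα+/+ difference was -0.40, a fall (adjusted p = 0.0427).

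Of 8 tested genes of nuclear, dosage-related and imprinted lncRNAs, 1 rose, 3 fell and 4 were not called in ERRα-/- cells, and 1 rose, 4 fell and 3 were not called in ERRα+/+ cells. Over all probes 22.9% rose and 20.7% fell in ERRα-/- cells, and 20.1% and 19.6% in ERRα+/+ cells. Quantile normalization gave 1 rise and 4 falls in each genotype, and the replicate block 1 rise and 7 falls in each. Normexp background correction gave fewer falls, with 1 rise and 2 falls in each. Malat1, an abundant lncRNA of nuclear speckles, read 1.40, 0.64 and 0.97 on ERRα-/- LPS arrays and 2.09, 1.54 and 1.97 on ERRα-/- PBS arrays. The ERRα+/+ LPS arrays gave 0.73, 0.85 and 0.85 and the ERRα+/+ PBS arrays 1.53, 1.81 and 1.68. LPS arrays lay below PBS arrays within each genotype, and the difference was -0.86 ± 0.21 (adjusted p = 0.00757) in ERRα-/- cells and -0.87 ± 0.21 (adjusted p = 0.00829) in ERRα+/+ cells. Neat1, the scaffold of paraspeckles, differed by -0.84 in ERRα-/- cells (adjusted p = 0.15) and -0.90 in ERRα+/+ cells (adjusted p = 0.133), and was called with the replicate block (adjusted p = 0.00144 and 0.0012). Peg13, an imprinted lncRNA within Trappc9, read 1.69, -0.039 and -0.12 on ERRα-/- LPS arrays and 2.62, 2.89 and 2.79 on ERRα-/- PBS arrays. For ERRα+/+ cells the levels were 2.23, 0.70 and 0.78 with LPS and 2.73, 3.49 and 3.10 with PBS. Its slide 1 LPS arrays stayed far above those of slide 2. The difference was -2.26 ± 0.51 (adjusted p = 0.00488) in ERRα-/- cells and -1.87 ± 0.51 (adjusted p = 0.0139) in ERRα+/+ cells. The ERRα+/+ call was lost on leaving out ERRα+/+ LPS replicate 2 (then -1.60 at adjusted p = 0.0585), ERRα+/+ LPS replicate 3 (then -1.65 at adjusted p = 0.0569) or ERRα+/+ PBS replicate 2 (then -1.68 at adjusted p = 0.054). Trappc9 itself was not called (-0.18 in ERRα-/- and -0.16 in ERRα+/+ cells).

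On the X chromosome, Kantr read -0.81, -1.33 and -1.50 on ERRα-/- LPS arrays and 0.65, 1.15 and 1.11 on ERRα-/- PBS arrays. On ERRα+/+ LPS arrays the values were -0.67, -1.25 and -1.54, against 0.70, 1.34 and 1.38 on ERRα+/+ PBS arrays. It fell on both slides, and the difference was -2.18 ± 0.29 (adjusted p = 0.000232) in ERRα-/- cells and -2.29 ± 0.29 (adjusted p = 0.000182) in ERRα+/+ cells. Ftx, an lncRNA of the X-inactivation centre that contains microRNAs, differed by -0.98 ± 0.26 (adjusted p = 0.0109) in ERRα-/- cells and -0.87 ± 0.26 (adjusted p = 0.0215) in ERRα+/+ cells, both called. The ERRα+/+ call was lost on leaving out ERRα+/+ LPS replicate 2 (then -0.79 at adjusted p = 0.0747), ERRα+/+ LPS replicate 3 (then -0.86 at adjusted p = 0.0605), ERRα+/+ PBS replicate 2 (then -0.74 at adjusted p = 0.0804) or ERRα+/+ PBS replicate 3 (then -0.78 at adjusted p = 0.0733). The member probe of the imprinted antisense transcript Kcnq1ot1 differed by -1.31 in ERRα-/- and -1.04 in ERRα+/+ cells, called under the replicate block and not without a block (adjusted p = 0.00208 and 0.0068). A second Kcnq1ot1 probe, above background on 11 arrays and so no member, fell in ERRα-/- cells (-1.79, adjusted p = 0.0149) and differed by -1.01 in ERRα+/+ cells (adjusted p = 0.136, or 0.0131 with the replicate block). Of 2 probes of Airn, an imprinted antisense lncRNA, 1 differed by -0.74 in ERRα-/- and -0.79 in ERRα+/+ cells, again called under the replicate block and not without a block (adjusted p = 0.00232 and 0.00196). The other differed by 0.66 in ERRα-/- and -0.023 in ERRα+/+ cells and was not called. The rise of the list was that of Tug1, of whose 3 probes 1, that of NR_002322, was called, by 1.22 ± 0.35 (adjusted p = 0.0166) in ERRα-/- cells and 1.31 ± 0.35 (adjusted p = 0.013) in ERRα+/+ cells. The ERRα-/- call was lost on leaving out ERRα-/- LPS replicate 2 (then 1.05 at adjusted p = 0.0668), ERRα-/- LPS replicate 3 (then 1.03 at adjusted p = 0.0665) or ERRα-/- PBS replicate 1 (then 1.01 at adjusted p = 0.0593). The ERRα+/+ call was lost on leaving out ERRα+/+ LPS replicate 2 (then 1.16 at adjusted p = 0.0535) or ERRα+/+ LPS replicate 3 (then 1.14 at adjusted p = 0.0551). With the replicate block the other two probes were also called in ERRα+/+ cells (0.51 at adjusted p = 0.0145 and 0.36 at adjusted p = 0.0415), and 1 of them in ERRα-/- cells (0.54 at adjusted p = 0.00697). Norad, a cytoplasmic lncRNA that binds Pumilio proteins, had 4 probes between -0.34 and 0.28 in ERRα-/- cells and between -0.39 and 0.13 in ERRα+/+ cells. The lowest of them was called in ERRα+/+ cells (adjusted p = 0.0394), a call that was lost on leaving out any of 9 single arrays, and in ERRα-/- cells under the replicate block (adjusted p = 0.022).

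A list of genes with a reported link to inflammation, p53 or stress had 8 tested genes, of which 3 were members. In it 3 rose and 4 fell in ERRα-/- cells and 2 rose and 3 fell in ERRα+/+ cells, with 2 and 4, and 1 and 3, under quantile normalization. Normexp background correction gave 3 rises and 2 falls in ERRα-/- cells, and 2 and 3 in ERRα+/+ cells. Over all probes tested 22.9% rose and 20.7% fell in ERRα-/- cells, and 20.1% and 19.6% in ERRα+/+ cells. Among the list's calls in the main fit Sra1, which rose (0.39 in ERRα-/- and 0.56 in ERRα+/+ cells), and Gm20878, which fell in ERRα-/- cells (-0.55), were read by probes of coding accessions. Pvt1, beside Myc, had 2 probes: -1.21 and -0.44 in ERRα-/- cells and -1.16 and -0.58 in ERRα+/+ cells, all called, although the smaller ERRα-/- call was lost on leaving out ERRα-/- LPS replicate 2 (then -0.38 at adjusted p = 0.109), ERRα-/- LPS replicate 3 (then -0.40 at adjusted p = 0.0941), ERRα-/- PBS replicate 2 (then -0.46 at adjusted p = 0.0673) or ERRα-/- PBS replicate 3 (then -0.39 at adjusted p = 0.101). Nron, an lncRNA that restrains NFAT, rose in ERRα-/- cells by 0.59 ± 0.15 (adjusted p = 0.00979) and differed by 0.37 in ERRα+/+ cells (adjusted p = 0.0753, or 0.0468 under the replicate block). Outside the list, Lockd, downstream of the cell cycle inhibitor gene Cdkn1b, fell (-1.60 in ERRα-/- and -1.56 in ERRα+/+ cells); Cdkn1b differed by -0.91 in ERRα-/- cells, not called, and by -1.06 in ERRα+/+ cells, called (adjusted p = 0.0493).

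Transcripts named for the opposite strand of a coding gene moved with that gene in some cases. Dnmt3aos, opposite the DNA methyltransferase gene Dnmt3a, read -1, -0.72 and -0.68 on ERRα-/- LPS arrays and 0.87, 0.091 and 0.32 on ERRα-/- PBS arrays. With ERRα present, LPS arrays read -0.36, -0.69 and -0.89 and PBS arrays 1.48, 0.53 and 0.48. All LPS arrays lay below the PBS arrays of their genotype. It fell by 1.23 ± 0.30 in ERRα-/- and by 1.48 ± 0.30 in ERRα+/+ cells, and Dnmt3a fell by 1.05 and by 1.39 in the same order. Zfp652os (-0.80 in ERRα-/- and -0.84 in ERRα+/+ cells) fell as Zfp652 did (-1.17 and -1.05). The 2 probes of Sp3os fell in both genotypes (-0.95 and -0.81 in ERRα-/-, -1.06 and -1.01 in ERRα+/+ cells) whereas the transcription factor gene Sp3 was not called (-0.15 and -0.41). One ERRα-/- call of Sp3os was lost on leaving out ERRα-/- PBS replicate 2 (then -0.76 at adjusted p = 0.0518) or ERRα-/- PBS replicate 3 (then -0.74 at adjusted p = 0.0563). Lppos fell by 0.996 in ERRα-/- and by 0.78 in ERRα+/+ cells, and Pitpnm2os1 rose by 0.86 and 0.55, while Lpp and Pitpnm2 were not called. The ERRα+/+ call of Lppos was lost on leaving out ERRα+/+ LPS replicate 3 (then -0.55 at adjusted p = 0.0717) or ERRα+/+ PBS replicate 3 (then -0.69 at adjusted p = 0.0638), and that of Pitpnm2os1 on leaving out any of 8 single arrays. The partner genes Mccc1 (-0.83 in ERRα-/- and -0.93 in ERRα+/+ cells) and Phtf1 (-0.84 and -0.73) fell in both genotypes, and Fbxl12 fell in ERRα+/+ cells (-0.89; -0.55 in ERRα-/- cells, adjusted p = 0.0594). Mccc1os, Phtf1os, Map2k3os, Fbxl12os, Nrg3os and Dlx6os2 were not called; with the replicate block Nrg3os was called in ERRα-/- cells (0.48, adjusted p = 0.0126) and Phtf1os in ERRα+/+ cells (-0.59, adjusted p = 0.015). Rab10os was not called while Rab10, a small GTPase gene, rose by 1.42 in ERRα-/- and 1.60 in ERRα+/+ cells. Zbtb11os1 fell in ERRα-/- cells by 1.88 (adjusted p = 0.003) and differed by -0.97 in ERRα+/+ cells (adjusted p = 0.0691, or 0.0137 under the replicate block), with Zbtb11 not called in either.

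A start facing a coding gene was frequent among the members. Of 153 lncRNA member genes with a promoter window, 52 (34.0%) had a coding gene that starts within 1000 bases on the other strand. Among the other lncRNA genes of the table, on the array or not, 1119 of 9380 did (11.9%). Members differ from those genes by a probe on the array and an NR_ accession as well as by detection. Which of these goes with the share was not tested. Of the 52 members' pairs, 44 were measured. Each lncRNA was read by 1 probe and each coding gene by its brightest tested probe. The responses of lncRNA and coding gene had a Pearson r of 0.433 in ERRα-/- and 0.409 in ERRα+/+ cells over pairs on the same arrays. Both genes were called in 10 pairs in ERRα-/- cells, 7 in the same direction, and in 11 pairs in ERRα+/+ cells, 10 in the same direction. Among the ERRα+/+ pairs, Tug1 with Morc2a counted through the called probe of Tug1, whose other probes were not called. Of all probes tested 43.7% were called in ERRα-/- and 39.7% in ERRα+/+ cells, and a share for other pairs of genes is not given here. Gm16062, whose promoter is shown above, starts 41 bases from Flcn, the folliculin gene of lysosomal and mTORC1 signalling. It read -1.91, -2.69 and -2.68 on ERRα-/- LPS arrays and -0.69, -0.079 and -0.078 on ERRα-/- PBS arrays. Levels in ERRα+/+ cells were -2.02, -2.42 and -2.67 under LPS and -0.45, -0.64 and -0.41 under PBS. All LPS arrays were below all PBS arrays, with a difference of -2.14 ± 0.26 (adjusted p = 0.000163) in ERRα-/- cells and -1.87 ± 0.26 (adjusted p = 0.000376) in ERRα+/+ cells, and Flcn fell by 1.32 in ERRα-/- and by 1.63 in ERRα+/+ cells.

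Pairs that fell together in both genotypes also included 4833418N02Rik with Ttc7 (lncRNA -1.08 in ERRα-/- and -0.97 in ERRα+/+ cells, coding gene -1.69 and -2.01) and 2900005J15Rik with Prkag2, a regulatory subunit gene of the kinase AMPK (lncRNA -1.32 in ERRα-/- and -1.09 in ERRα+/+ cells, coding gene -3.24 and -3.16). The ERRα+/+ call of 2900005J15Rik was lost on leaving out ERRα+/+ LPS replicate 2 (then -0.99 at adjusted p = 0.0501) or ERRα+/+ PBS replicate 2 (then -0.91 at adjusted p = 0.0534). 1700052K11Rik rose with the kinase gene Tlk2 (lncRNA 0.85 in ERRα-/- and 0.73 in ERRα+/+ cells, coding gene 2.77 and 2.32), with its ERRα+/+ call lost without ERRα+/+ LPS replicate 2 (then 0.66 at adjusted p = 0.0918), ERRα+/+ LPS replicate 3 (then 0.65 at adjusted p = 0.0951) or ERRα+/+ PBS replicate 1 (then 0.53 at adjusted p = 0.0865). Opposite calls in ERRα-/- cells were those of Gm9958 (-1.03) with Ankrd17 (1.93), of Stk35os1 (-0.73) with Stk35 (0.46) and of 2700046G09Rik (-0.64) with Sgms1 (1.22). The Stk35os1 call was lost on leaving out ERRα-/- LPS replicate 2 (then -0.69 at adjusted p = 0.0544) or ERRα-/- PBS replicate 3 (then -0.66 at adjusted p = 0.0598), and that of 2700046G09Rik without any of 5 single arrays. The partner Daxx, a histone chaperone gene, rose by 3.17 in ERRα-/- and 3.03 in ERRα+/+ cells, while BC051226 was not called (0.79 in ERRα-/- and 0.31 in ERRα+/+ cells) without a block; with the replicate block it was called in ERRα-/- cells (adjusted p = 0.0203).

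**Figure D4:**
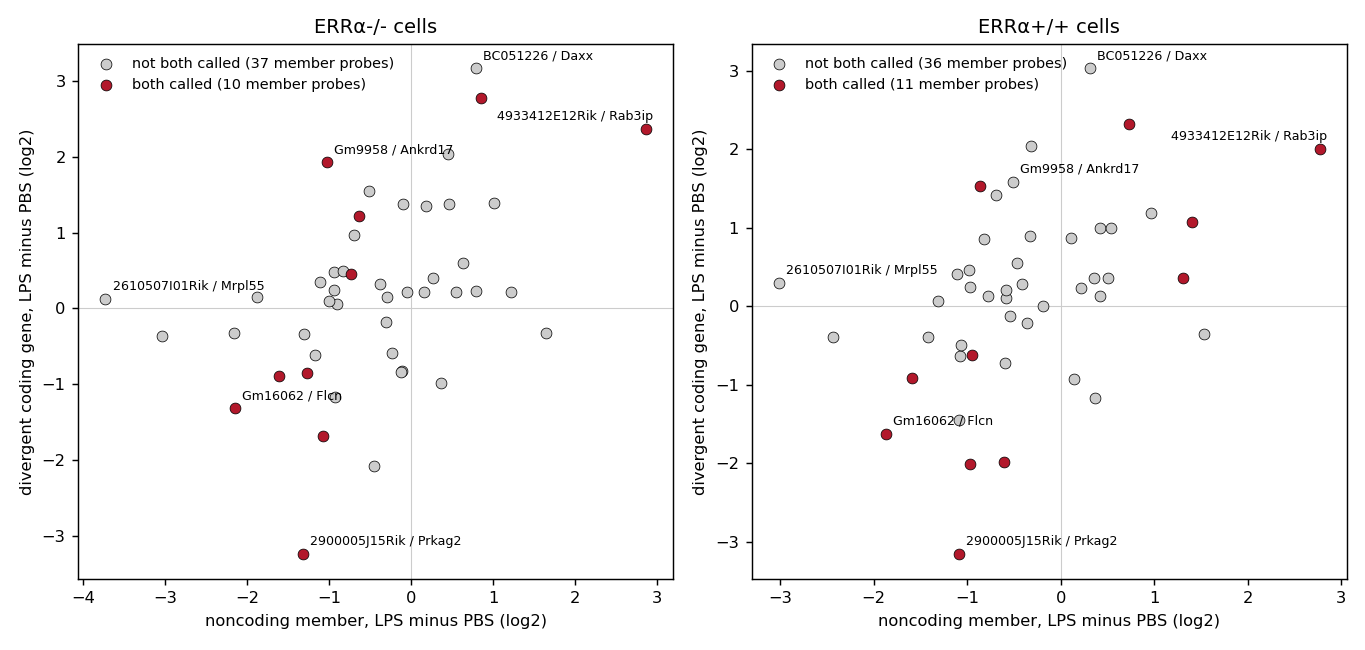
Log2 difference LPS minus PBS of each lncRNA member probe against that of the coding gene starting within 1000 bases on the other strand, in ERRα-/- cells (left panel) and ERRα+/+ cells (right panel); red points are probes with both genes called and grey points the others. Points with both genes called lie mostly in the quadrants of equal sign, with 4933412E12Rik and Rab3ip at the upper right and Gm16062 and Flcn at the lower left.

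The nearest coding gene, at any distance and on either strand, was read as well. Of 277 member genes with such a neighbour, 110 overlapped it, and 210 neighbours were tested, each read by its brightest tested probe. Pearson's r across them was 0.203 in ERRα-/- and 0.175 in ERRα+/+ cells. Both genes were called in 46 cases in ERRα-/- cells, 30 in the same direction, and in 44 cases in ERRα+/+ cells, 28 in the same direction. Of all probes tested 43.7% were called in ERRα-/- and 39.7% in ERRα+/+ cells, and a share for other pairs of genes is not given here. For overlapping genes the strand that a probe reads was not established from these files, so reads of the pair cannot be told apart where they share sequence.

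NR_ variants of coding genes could differ from the coding transcript's own probes. Bmp1, an extracellular metalloprotease gene, had an NR_ probe at -0.11, 0.51 and 0.60 on ERRα-/- LPS arrays and -1.78, -1.71 and -1.72 on ERRα-/- PBS arrays. In ERRα+/+ cells it was 0.12, 0.997 and 1.02 with LPS and -1.36, -1.42 and -1.54 with PBS. It rose by 2.07 ± 0.26 (adjusted p = 0.000173) in ERRα-/- cells and 2.15 ± 0.26 (adjusted p = 0.000138) in ERRα+/+ cells, while 1 coding probe of the gene rose by 4.39 in ERRα-/- and 4.15 in ERRα+/+ cells and another was not called (0.27 and 0.36). The NR_ probe of the BCL6 corepressor gene Bcor fell, with differences of -1.24 ± 0.32 (adjusted p = 0.0102) in ERRα-/- cells and -1.51 ± 0.32 (adjusted p = 0.00417) in ERRα+/+ cells, and its coding probe was not called (0.14 and 0.17). For Prmt6, an arginine methyltransferase gene, the NR_ probe was not called (-0.80 in ERRα-/- and -0.74 in ERRα+/+ cells) and the coding probe rose (0.79 and 0.90). Without ERRα-/- LPS replicate 1 the Prmt6 NR_ probe passed the threshold in both genotypes, at -1.28 in ERRα-/- and -0.74 in ERRα+/+ cells. Zfp207 showed the same split, with -0.28 in ERRα-/- and -0.28 in ERRα+/+ cells for the NR_ probe, not called, and rises of 1.39 and 1.13 for the coding probe. Where a member gene had several member probes (29 genes, 70 probes), 0 genes had opposite calls and 20 had the same call for all probes in ERRα-/- cells, with a median spread of 0.25.

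The pattern of H2-Q5 over the 12 arrays was most like that of 4933412E12Rik (Pearson r = 0.975), Gm12298 (0.973), A630012P03Rik (0.971), Gdap10 (0.967) and Gm12216 (0.967). In all, 19 members had r above 0.9 with it and 37 had r below -0.9. The arrays share the LPS contrast and the slides, so these values describe likeness only.

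No member was called between ERRα-/- and ERRα+/+ cells in the limma fit, at either treatment or over both. Under LPS 0 members were called (background 0.125% of all probes) and 16 had an unadjusted p under 0.05 (background 5.18%). Under PBS 0 were called (background 0.193%) and 15 had an unadjusted p under 0.05 (5.61%). Averaged over both treatments 0 were called (0.713%) and 28 had an unadjusted p under 0.05 (7.9%). With the replicate number as a block, which assumes that same-numbered arrays are pairs, 3 member probes were called in the averaged comparison. They were both probes of Gpr137b-ps and that of 9430060I03Rik. The share of all probes called in the fits with a block is not given here, so these calls have no background. The genotype difference is given as ERRα-/- minus ERRα+/+ below.

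Gpr137b-ps, a pseudogene of a lysosomal membrane protein gene on chromosome 13, read lower in ERRα-/- cells without being called in the unblocked fit. The brighter probe read 4.94, 4.14 and 4.07 on ERRα-/- LPS arrays and 5.43, 4.62 and 4.61 on ERRα-/- PBS arrays. The ERRα+/+ LPS arrays gave 5.59, 4.45 and 4.56 and the ERRα+/+ PBS arrays 6.34, 5.16 and 5.19. Each ERRα-/- array lay below the ERRα+/+ array of the same number and treatment, in 6 of 6 pairs, although the ranges of the genotypes overlapped and slide 1 arrays were higher. Its averaged difference was -0.58 ± 0.30 (n = 6 arrays per genotype, limma adjusted p = 0.697), with adjusted p = 0.011 under the replicate block and 0.0046 with the slide as a block. The other probe read 3.02, 1.58 and 1.47 on ERRα-/- LPS arrays and 4.08, 2.92 and 2.83 on ERRα-/- PBS arrays. For ERRα+/+ cells the levels were 4.07, 2.42 and 2.15 with LPS and 5.05, 3.26 and 3.29 with PBS. It was again lower in 6 of 6 pairs, and differed by -0.72 ± 0.47 (n = 6 arrays per genotype, limma adjusted p = 0.803), with adjusted p = 0.012 under the replicate block and 0.00625 with the slide as a block. On slide 1 the differences of the brighter and the dimmer probe were -0.78 and -1.01, and on slide 2 -0.48 and -0.58 (adjusted p = 0.00915 and 0.0132).

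9430060I03Rik, an lncRNA that overlaps the calpain gene Capn10 on chromosome 1, read -1.89, -1.64 and -1.68 on ERRα-/- LPS arrays and -1.72, -1.55 and -1.53 on ERRα-/- PBS arrays. On ERRα+/+ LPS arrays the values were -1.53, -0.98 and -1.12, against -1.48, -0.66 and -1.13 on ERRα+/+ PBS arrays. It was lower in ERRα-/- cells in 6 of 6 pairs, with a difference of -0.52 ± 0.16 (n = 6 arrays per genotype, limma adjusted p = 0.283), with adjusted p = 0.0383 under the replicate block and 0.0291 with the slide as a block. Rps4l, a pseudogene-typed relative of the ribosomal protein S4 gene on chromosome 6, read 2.00, 2.17 and 2.06 on ERRα-/- LPS arrays and 1.28, 1.62 and 1.65 on ERRα-/- PBS arrays. With ERRα present, LPS arrays read 1.67, 1.81 and 1.85 and PBS arrays 1.03, 1 and 1.14. It was higher in ERRα-/- cells in 6 of 6 pairs, by 0.38 ± 0.10 (n = 6 arrays per genotype, limma adjusted p = 0.208), with adjusted p = 0.0526 under the replicate block and 0.0262 with the slide as a block; within slide 2 it was 0.43 (adjusted p = 0.0149). Rps4l also rose with LPS (0.56 in ERRα-/- and 0.72 in ERRα+/+ cells). With the slide as a block, Tubb2a-ps2 (-0.41) and 9430037G07Rik (-0.39) were also called averaged over treatments, and Selenok-ps1 (0.53, adjusted p = 0.0474) under LPS. The same fit called Gpr137b-ps within each treatment, with the dimmer probe under LPS (-0.86, adjusted p = 0.0351) and the brighter probe under PBS (-0.68, adjusted p = 0.0237).

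**Figure D5:**
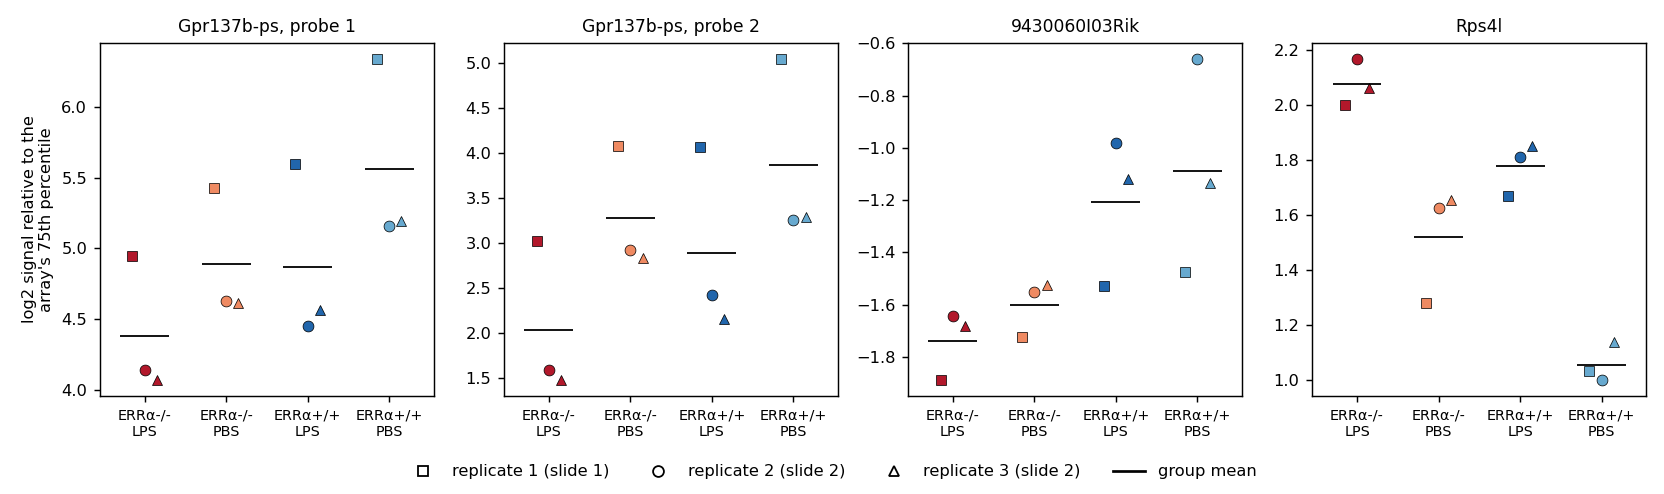
Level of both probes of Gpr137b-ps, of 9430060I03Rik and of Rps4l on each array (log2 signal over the 75th percentile), in the order ERRα-/- LPS, ERRα-/- PBS, ERRα+/+ LPS and ERRα+/+ PBS, with a marker per replicate and a bar at the group mean. Within each replicate number and treatment, Gpr137b-ps lies lower in ERRα-/- cells in 6 of 6 pairs for both probes.

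The smallest adjusted p-values of the single-treatment comparisons stayed far from the threshold. Under LPS they were those of Gm1715 (0.50 ± 0.16, adjusted p = 0.543) and 1700001L05Rik (-0.53 ± 0.17, adjusted p = 0.543), followed by Gm10941 (-0.67), 9430037G07Rik (-0.61) and A630012P03Rik (0.90). Under PBS they were that of Rps4l (0.46 ± 0.15, adjusted p = 0.514) and those of A430088P11Rik (0.72), 6330407A03Rik (0.71), Mccc1os (0.40) and the unnamed NR_026976 (-0.59). Averaged over treatments, Rps4l was followed by 2310040G24Rik (0.60), the unnamed NR_040470 (0.48), 9430060I03Rik (-0.52) and Gm8096 (-0.66). The LPS response itself differed between genotypes in 0 members (background 0% of all probes), and 4 had an unadjusted p under 0.05 (background 2.05%). The smallest unadjusted p-values belonged to Gm1715 (0.72 ± 0.22), 1700001L05Rik (-0.61), Gm10941 (-0.77), Slc22a13b (0.99) and BC018473 (0.48), all with an adjusted p of 0.99995.

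Detection on all 12 arrays left out transcripts that are read in only some groups. Of the 1400 NR_ probes, 598 were above background on no array, 40 on 11 arrays, and 150 non-members were tested in all. Mean levels ran from -3.54 to 9.58 among members (median -0.22) and from -3.91 to -1.39 among the 40 probes just outside (median -3.17). AW011738, U90926 and 4933432I03Rik were above background on all 6 LPS arrays and no PBS array, and D5Ertd605e, Gm3893 and Gm7854 on all 6 PBS arrays and no LPS array. No NR_ probe was above background on all 6 arrays of 1 genotype and on no array of the other. Morrbid, an lncRNA near Bcl2l11 known for controlling the lifespan of myeloid cells, was above background on all 6 LPS arrays, 1 ERRα-/- PBS array and no ERRα+/+ PBS array. In ERRα-/- cells it was called as higher with LPS (adjusted p = 0.000493), with a PBS level measured on 1 of 3 arrays. In ERRα+/+ cells it was at least 20.7-fold higher with LPS (adjusted p = 0.000341), with the PBS level as a bound because it was not well above background. F630028O10Rik was above background on all 6 PBS arrays, no ERRα-/- LPS array and 1 ERRα+/+ LPS array. It was at least 3.08-fold lower with LPS in ERRα-/- cells (adjusted p = 0.00115). In ERRα+/+ cells it was called as lower with LPS (adjusted p = 0.0045), with an LPS level measured on 1 of 3 arrays.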

How the data were processed

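Total RNA of 12 macrophage samples was labelled with Cy3 and hybridised to 1-colour Agilent arrays, per the labels' protocols. The deposited intensities are spot brightness values; the processed signal was background-subtracted and detrended within each array by Agilent Feature Extraction 11.5.1.1, per the file headers, whereas version 9.3.2.1 is given in the submitters' processing notes. The other columns used, also deposited, are the flags for detection, saturation and non-uniform spots and the probe's accession.

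From these, log2 ratios of processed signal to the 75th percentile of each array were computed, non-uniform spots were left out and spots of a probe averaged. The 28040 probes were fitted with limma 3.58.1 in R 4.3.3, with 1 mean per group, and p-values were adjusted by the Benjamini-Hochberg method over all of them. No spot was saturated, and the number of arrays limits the precision. Gene names came through the accession from RefSeq tables (GRCm38.p6); the array design was annotated on mm9.

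For same-numbered samples 18 of 18 correlations of their deviations from group means were above 0.1 (0.116 to 0.749). Different numbers gave -0.641 to 0.446. The negative values all set replicate 1 (slide 1) against replicate 2 or 3 (slide 2). Replicates 2 and 3, which share slide 2, gave 0.136 to 0.446 with each other. Within those replicates the same number gave 0.116 to 0.578. Pairing by number beyond the shared slide was thus not shown, and the replicate block takes it as an assumption.

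Named were, per contrast, the 8 largest called rises and falls (moved alike in 3 of 3 replicates), or the 5 smallest adjusted p-values, and the members of the gene lists and opposite-strand names. Genes cited as pairs or coding variants, and Dubr, Gm8096, Zfp133-ps, Thap6, Lockd and 2410006H16Rik, were chosen after their values were seen. Levels of different genes were not ranked. Among the probes of a gene, the brightest tested one was picked for listed genes and for coding partners and neighbours. Members and lists were chosen with earlier results of these data known. Alternatives were quantile normalization, normexp with an offset of 50 (on the median spot and background signals, in place of the mean signal first planned), other filters on dim probes, flagged spots kept, the series table's values, slide or replicate as a block, slide 2 alone, stricter thresholds and leaving out each array. The fit was tested on simulated data.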

Additional observations from a re-analysis of the deposited data

How the results depend on the processing

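Of the 351 member probes, 159 were called for LPS in ERRα-/- cells and 152 in ERRα+/+ cells. Within slide 2 these counts were 241 and 229, at a log2 difference of at least 1 in size 88 and 79, and at an adjusted p under 0.01 97 and 88. Without a filter on dim probes they were 107 and 97, with more probes entering the adjustment. Leaving out 1 array at a time gave 116 to 172 in ERRα-/- and 107 to 167 in ERRα+/+ cells. The replicate block gave 215 and 204, and the slide block 219 and 209; all 159 and 152 calls were retained under both. Between genotypes 0 members were called under PBS, LPS or over both, and leaving out any array gave 0 to 0; unadjusted p-values under 0.05 numbered 15, 16 and 28. The slide block called 1 under PBS, 2 under LPS and 6 over both, slide 2 alone called 10, 17 and 35, and the replicate block called 3 over both. The share of all probes called in these fits is not given here, so these counts have no background. The difference of LPS responses gave 0 calls (4 at an unadjusted p under 0.05), and 1 within slide 2. Of named results under the alternatives, 6415 LPS values stayed on their side of the threshold, 252 lost a call, 240 gained one and 5 turned sign, all 5 with quantile normalization: Exosc2 in ERRα-/- cells (-0.033), Npm1 in ERRα-/- (-0.56) and ERRα+/+ cells (-0.47), Rnu12 in ERRα+/+ cells (-0.40) and Sra1 in ERRα-/- cells (-0.14). The cause was not tested. Of the LPS differences printed for single members, the replicate block changed no call other than those given with its adjusted p. Probes near background limit what can be read of dim transcripts.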
